A study of Mus musculus with 9 samples.

Results

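The early response of TRIF KO macrophages is the difference between 2 of the 9 arrays in a study of lipopolysaccharide (LPS) signalling. One array holds TRIF KO cells after 1 h of 100 ng/ml LPS, and the other holds unstimulated TRIF KO cells (0 h). All cells were peritoneal macrophages taken from mice after an injection of thioglycollate, an irritant broth that recruits these cells into the abdominal cavity. The remaining arrays were TRIF KO cells after 4 h of LPS, MyD88 KO cells at 0, 1 and 4 h, and wild-type cells at 0, 1 and 4 h. Each group had 1 array, so no difference between a pair of arrays has a replicate check. Labels give the genotypes only as wild-type, MyD88 KO and TRIF KO. The knockout alleles, the mouse background, the age and number of mice, and any pooling are unstated in the labels. Values are log2 levels made with RMA, which puts arrays that are processed together on one scale. Whether all 9 arrays were processed together is unstated. A difference of 1 on the log2 scale is a 2-fold change in signal. Each gene was read from 1 probe set, the one with the highest mean over the 9 arrays. Of 12394 genes with a probe set of their own, 10032 reached a level of 6 on at least 1 array and were analysed.

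LPS, a component of the outer membrane of Gram-negative bacteria, is sensed by Toll-like receptor 4 (TLR4). The receptor signals through a pair of adaptor proteins. MyD88 is recruited at the cell surface and acts through IRAK kinases, TRAF6 and TAK1 on NF-kB and the MAP kinases. TRIF is recruited after the receptor has entered endosomes and acts through TBK1 on IRF3, which drives interferon-beta, and also feeds into NF-kB. In cells without TRIF, MyD88 is the adaptor left to the receptor. The first genes to respond to LPS are immediate early transcription factors, inhibitors of NF-kB that form feedback loops, and a small set of cytokines and chemokines.

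Myd88 itself read 9.54 in TRIF KO cells at 1 h, against 9.56 in TRIF KO cells at 0 h. In MyD88 KO cells it read 9.19 at 1 h, against 9.30 at 0 h. Wild-type cells read 9.58 at 1 h, against 9.57 at 0 h. The Myd88 level was thus only slightly lower in MyD88 KO cells, which gives no clear check of that label. The gene for TRIF, Ticam1, had no probe set of its own here, so the array values give no check of the TRIF KO label. Array medians lay between 7.01 and 7.07, and pairs of arrays correlated across probe sets at 0.969 to 0.996. The pair of TRIF KO arrays at 1 h and 0 h stood at 0.996. Macrophage identity markers were read at 9.10 to 14.43 in unstimulated TRIF KO cells, with Adgre1 (F4/80) at 12.06 and Lyz2 at 14.43. Over the 9 analysed markers of that list, 1 h minus 0 h in TRIF KO cells lay between -0.06 and 0.18. Of 66 listed markers of 9 other cell types, 38 were analysed. Their differences lay between -0.41 and 0.37, and 0 of them reached 1.5-fold. RMA levels have no true zero, so these values do not show that a cell type was absent. In such bulk RNA, fewer cells of a type and less RNA per cell cannot be told apart.

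At 1 h of LPS, 14 genes were at least 2-fold higher in TRIF KO cells and 0 were at least 2-fold lower, 0.14% and 0.0% of the 10032 genes. At 1.5-fold, 35 genes were higher (0.349%) and 1 was lower (0.00997%). By comparison, 94.9% of all genes lay within 0.25 of 0, and the median difference was 0.01. The response was therefore narrow and almost all upward. Between unstimulated TRIF KO and wild-type cells, 8 genes were at least 2-fold higher (0.0797%) and 7 at least 2-fold lower (0.0698%) in TRIF KO. In that comparison of 2 arrays without a stimulus, 99% of genes differed by less than 0.47. Just inside the 2-fold limit were Junb (1.08) and Socs3 (1.05), and just outside it Ccrl2 and Btg2 (0.93 each). At the 1.5-fold limit of 0.58, Nfkbia was inside at 0.59, and Cebpb, at 0.58 to 2 decimals, was just outside.

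The 2-fold genes fall into 5 roles. They are 1 nuclear regulator of NF-kB (Nfkbiz), 2 chemokines (Cxcl1, Cxcl2) and 4 cytokines (Tnf, Il1b, Il1a, Tnfsf9). The others are 3 immediate early genes (Egr1, Ier3, Junb) and 4 regulators of signalling or mRNA (Zfp36, Pde4b, Dusp1, Socs3). There were 6 genes past 4-fold in TRIF KO cells, namely Nfkbiz, Cxcl1, Cxcl2, Tnf, Il1b and Egr1.

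**Figure D1:**
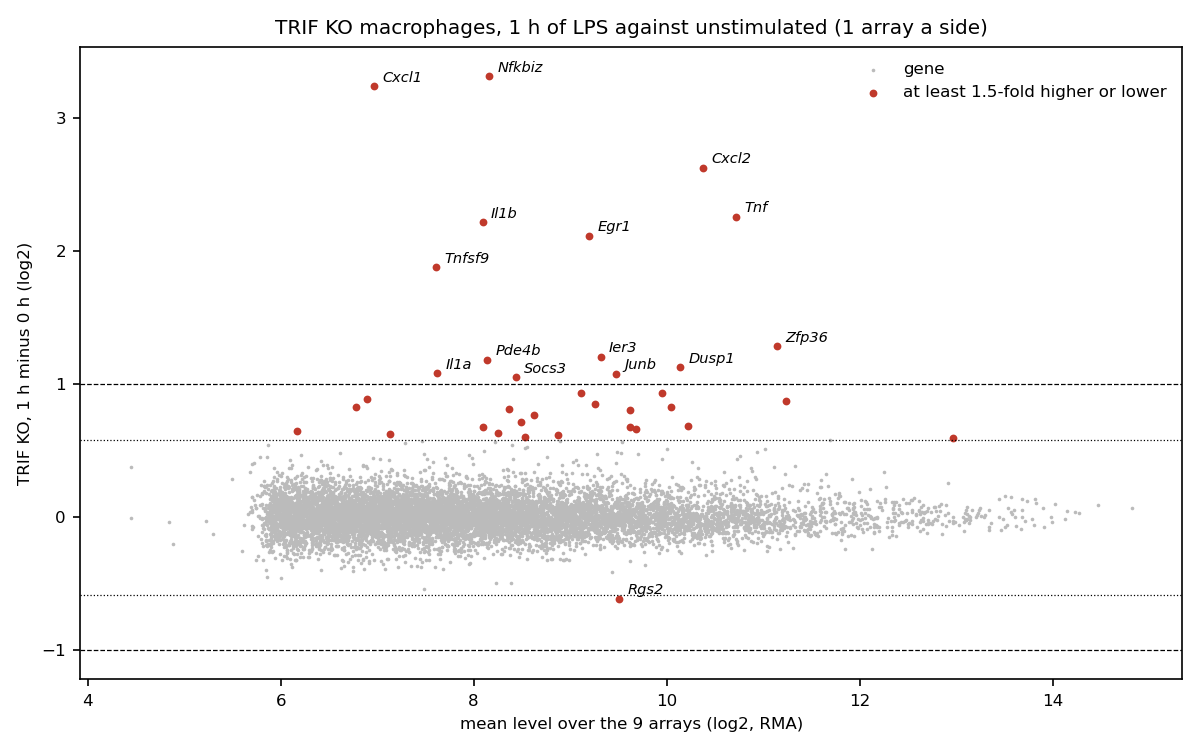
Each point is 1 of the 10032 genes, with the mean log2 level over the 9 arrays across and the TRIF KO difference at 1 h (1 h minus 0 h, log2) upward. Red points are the 35 genes at least 1.5-fold higher and the 1 gene, Rgs2, at least 1.5-fold lower. Dashed lines mark 2-fold and dotted lines 1.5-fold. The higher genes have mean levels from about 6 to 13, and no gene lies under the lower dashed line.

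Nfkbiz had the largest difference. It encodes IkappaB-zeta, a nuclear protein that binds NF-kB subunits and is needed for a second set of inflammatory genes. The level was 10.39 in TRIF KO cells at 1 h, against 7.07 in TRIF KO cells at 0 h, a difference of 3.32. MyD88 KO cells read 7.31 at 1 h, against 5.92 at 0 h. Wild-type cells read 10.73 at 1 h, against 6.87 at 0 h. The TRIF KO array at 1 h was thus near the wild-type array and far above the MyD88 KO array. A second probe set of Nfkbiz gave a difference of 2.19 in TRIF KO cells.

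Cxcl1 and Cxcl2 encode chemokines that attract neutrophils through the receptor CXCR2. Cxcl1 read 8.57 in TRIF KO cells at 1 h, against 5.33 in TRIF KO cells at 0 h (9.48-fold). In MyD88 KO cells it read 6.24 at 1 h, against 5.11 at 0 h. In wild-type cells it read 9.17 at 1 h, against 5.19 at 0 h. All 3 unstimulated levels of Cxcl1 were under the limit of 6 used to select genes, and with values below 6 raised to 6 the TRIF KO difference was 2.57. Cxcl2 read 11.90 in TRIF KO cells at 1 h, against 9.27 in TRIF KO cells at 0 h (6.19-fold). It was the 2-fold gene that did not have a smaller difference in MyD88 KO cells, where it read 10.12 at 1 h, against 7.18 at 0 h. In wild-type cells it read 12.36 at 1 h, against 9.01 at 0 h.

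Tnf, the cytokine tumour necrosis factor, read 11.92 in TRIF KO cells at 1 h, against 9.66 in TRIF KO cells at 0 h (4.80-fold). Its levels were 10.08 at 1 h, against 8.82 at 0 h, in MyD88 KO cells, and 12.67 at 1 h, against 9.54 at 0 h, in wild-type cells. Il1b, which encodes the precursor of interleukin-1 beta, read 9.21 in TRIF KO cells at 1 h, against 6.99 in TRIF KO cells at 0 h (4.66-fold). Both cytokine genes were ordered alike at 1 h, with wild-type cells highest and MyD88 KO cells lowest. Il1a, for interleukin-1 alpha, read 8.06 in TRIF KO cells at 1 h, against 6.98 in TRIF KO cells at 0 h (2.12-fold). Tnfsf9, which encodes the ligand of the costimulatory receptor 4-1BB, read 8.38 in TRIF KO cells at 1 h, against 6.49 in TRIF KO cells at 0 h (3.69-fold). Its wild-type levels were 10.13 at 1 h, against 6.06 at 0 h (16.7-fold). MyD88 KO cells gave Tnfsf9 levels of 7.96 at 1 h, against 6.21 at 0 h (3.35-fold), so the knockouts were close to each other and both were far below wild type.

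Egr1 encodes a zinc finger transcription factor that is switched on by MAP kinase signalling. It read 10.97 in TRIF KO cells at 1 h, against 8.85 in TRIF KO cells at 0 h (4.34-fold). At 1 h the TRIF KO and wild-type levels of Egr1 were nearly equal, at 10.97 and 11.01, and MyD88 KO cells read 10.21. Wild-type cells started lower, at 8.19 at 0 h. The Egr1 difference was therefore smaller in TRIF KO cells (2.12) than in wild-type cells (2.82), and it was 1.45 in MyD88 KO cells. Junb, a subunit of the AP-1 transcription factor, read 10.13 in TRIF KO cells at 1 h, against 9.04 in TRIF KO cells at 0 h (2.12-fold). Ier3, an immediate early gene linked to cell survival, read 10.42 in TRIF KO cells at 1 h, against 9.21 in TRIF KO cells at 0 h (2.31-fold). Ier3 was the 2-fold gene closest to wild type in the size of its difference, at 1.21 in TRIF KO cells and 1.28 in wild-type cells.

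The 4 regulators of signalling or mRNA act at different steps. Zfp36 encodes tristetraprolin, which binds AU-rich elements of cytokine mRNAs and speeds their decay. It read 12.05 in TRIF KO cells at 1 h, against 10.76 in TRIF KO cells at 0 h (2.45-fold), and differed by 1.39 in wild-type cells. Dusp1, a phosphatase that switches off MAP kinases, read 10.87 in TRIF KO cells at 1 h, against 9.74 in TRIF KO cells at 0 h (2.19-fold). Pde4b, a phosphodiesterase that breaks down cyclic AMP, read 8.84 in TRIF KO cells at 1 h, against 7.66 in TRIF KO cells at 0 h (2.28-fold). Socs3, an inhibitor of cytokine receptor signalling through JAK kinases and STAT factors, read 8.91 in TRIF KO cells at 1 h, against 7.86 in TRIF KO cells at 0 h (2.08-fold). The fold of the last pair depends on the probe set. A second probe set of Pde4b gave a difference of 0.39, and 2 others of Socs3 gave 2.03 and 2.01. Of the 14 genes, 11 had a single probe set.

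**Figure D2:**
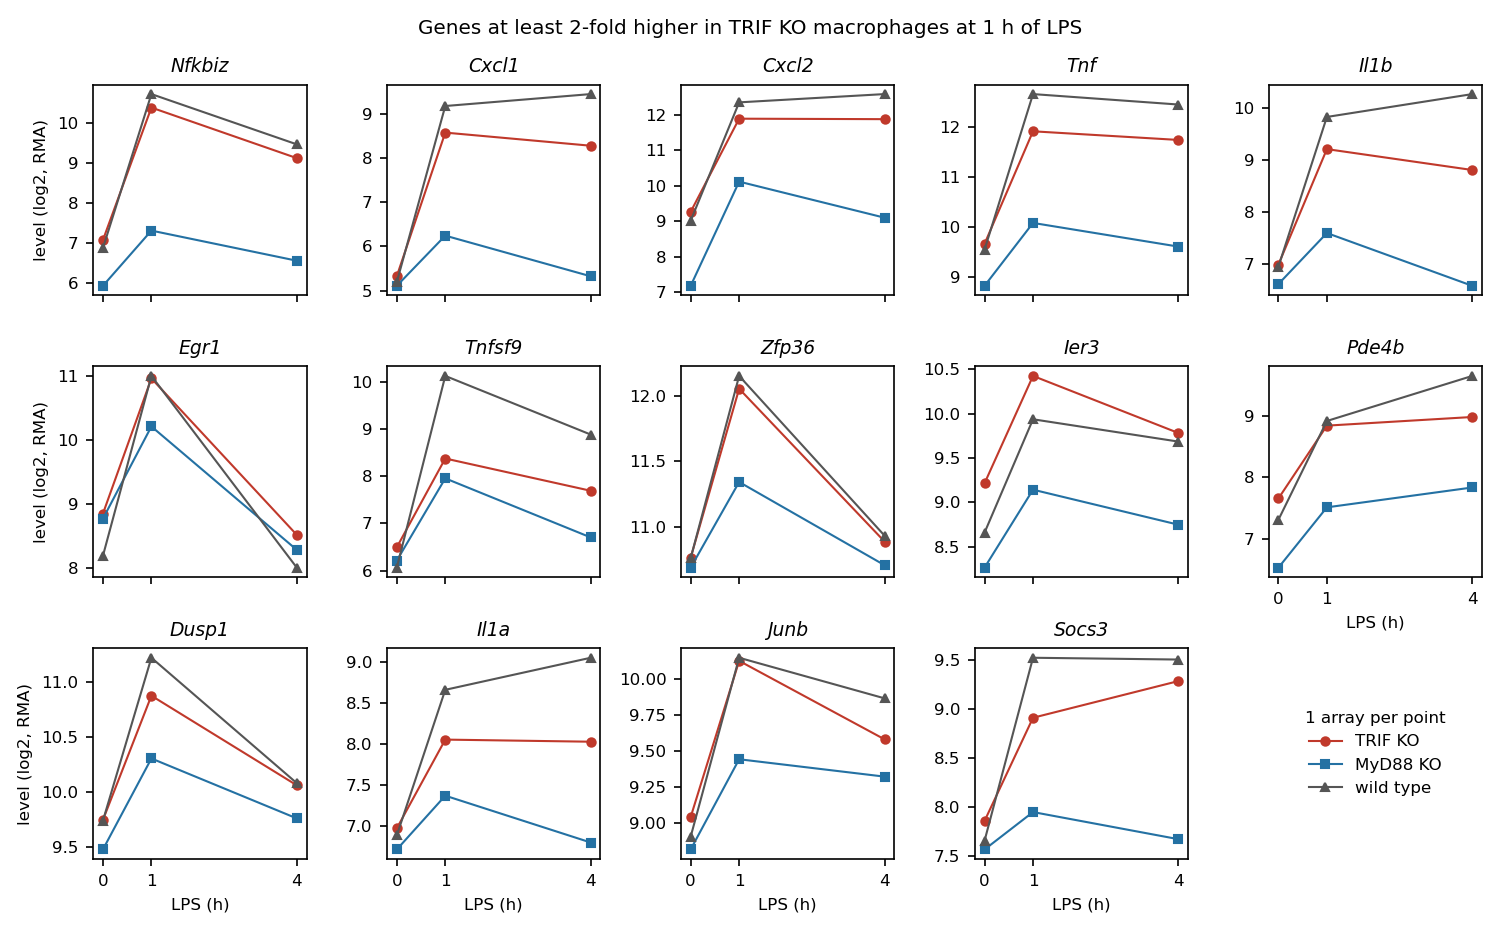
Log2 RMA levels (upward, each panel with its own range) at 0, 1 and 4 h of LPS (across) of the 14 genes at least 2-fold higher in TRIF KO cells at 1 h. Red circles are TRIF KO, blue squares MyD88 KO and grey triangles wild type, with 1 array per point. At 1 h, TRIF KO lies above MyD88 KO for every one of the 14 genes, and Ier3 is the gene where it also lies clearly above wild type.

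Promoter sequence was available for 11 of the 14 genes and for 29 of the 35 genes at least 1.5-fold higher (RefSeq, build GRCm38.p6). Nfkbiz, Egr1 and Tnfsf9 were the 2-fold genes without a promoter sequence, so no motif could be looked for in them. Both strands of the 250 bases before each annotated start were searched for the kB motif, the 10-base sequence that NF-kB binds. It was found for 4 of the 11 genes (36.4%) and for 10 of the 29 (34.5%), and for 5.77% of the 8083 analysed genes with a promoter. Over all 27025 genes of the promoter table the share was 4.46%. The CArG box, bound by serum response factor, was found for 1 of the 11 genes, Zfp36, and for 1.42% of the analysed genes. The letters TATAAA were found for 27.3% of the 11 genes and 27.6% of the 29, against 9.39% of the analysed genes. The AP-1 letters TGANTCA and the cyclic AMP response letters TGACGTCA were each found for 1 of the 11 genes, against 6.31% and 2.77% of the analysed genes. A match describes the letters of the window and shows no binding, and genes without a match may hold such sites elsewhere.

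The stretches printed here show the kB motif in 6 of the 10 genes that hold it, both chemokines, both NF-kB inhibitors, Ier3 and Irf1. Pde4b, Ccrl2, Fos and Nlrp3 are the other 4. Zfp36 is shown for its CArG box and Tnf as a gene with no match, and each stretch runs 5′ to 3′ up to the base before the annotated start. Capitals mark the kB motif, and in Zfp36 the CArG box. Cxcl1 lies at chr5:90891164-90891244 and Cxcl2 at chr5:90903792-90903898, both on the plus strand. In each, a match on either strand overlaps, so that the capitals form 1 site. Ier3 lies at chr17:35821611-35821712 and Irf1 at chr11:53769991-53770013 on the plus strand. Nfkbia lies at chr12:55492648-55492686 and Tnfaip3 at chr10:19015411-19015545 on the minus strand, as do Zfp36 at chr7:28379229-28379296 and Tnf at chr17:35202008-35202107.
Cxcl1: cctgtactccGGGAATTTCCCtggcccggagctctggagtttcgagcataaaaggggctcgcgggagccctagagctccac
Cxcl2: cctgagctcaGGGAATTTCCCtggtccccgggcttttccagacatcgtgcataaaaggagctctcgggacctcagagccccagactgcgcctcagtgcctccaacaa
Ier3: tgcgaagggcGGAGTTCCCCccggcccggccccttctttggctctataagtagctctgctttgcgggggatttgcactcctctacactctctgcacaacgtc
Irf1: agtccgggccGGGGAATCCCgct
Nfkbia: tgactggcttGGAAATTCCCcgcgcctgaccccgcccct
Tnfaip3: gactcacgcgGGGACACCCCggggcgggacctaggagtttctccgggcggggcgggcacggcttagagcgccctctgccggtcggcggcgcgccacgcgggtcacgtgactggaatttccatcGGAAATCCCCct
Zfp36: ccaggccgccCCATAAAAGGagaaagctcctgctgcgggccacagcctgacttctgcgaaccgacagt
Tnf: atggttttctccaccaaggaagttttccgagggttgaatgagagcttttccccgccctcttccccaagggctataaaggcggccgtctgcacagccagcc

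The capitals of Cxcl1 and Cxcl2 spell the same letters, at 71 and 97 bases before the start. These genes had the second and the third largest difference in TRIF KO cells. Nfkbia, with a kB motif 29 bases before its start, was near the 1.5-fold limit, and Tnf, whose difference was larger, had no kB match in the window. The presence of the motif and the size of the difference thus did not run in parallel among Cxcl1, Cxcl2, Nfkbia and Tnf. Nfkbiz, with the largest difference, could not be included, and no relation over all genes was tested.

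In the list of NF-kB subunits and inhibitors, 12 genes were analysed, and all 12 had a difference above 0 in TRIF KO cells, as did 52.7% of all genes. The median was 0.22, against 0.01 over all genes, and 3 reached 1.5-fold. Besides Nfkbiz these were the feedback inhibitors Tnfaip3 and Nfkbia. Tnfaip3, which encodes the ubiquitin-editing enzyme A20, read 8.92 in TRIF KO cells at 1 h, against 8.20 in TRIF KO cells at 0 h. Nfkbia, which encodes IkappaB-alpha, the inhibitor that holds NF-kB in the cytoplasm, read 13.42 in TRIF KO cells at 1 h, against 12.83 in TRIF KO cells at 0 h. For Nfkbia the difference was smaller in TRIF KO cells (0.59) than in MyD88 KO cells (0.97) and wild-type cells (0.86). Its level was nevertheless lower in MyD88 KO cells at both times, at 12.94 at 1 h, against 11.97 at 0 h. Wild-type cells read 13.48 at 1 h, against 12.62 at 0 h. Nfkbie (0.44), Nfkbib (0.27) and Nfkb2 (0.22) were within 1.5-fold of their unstimulated levels.

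Among 29 analysed immediate early transcription factors and related genes, 24 had a difference above 0 in TRIF KO cells (52.7% of all genes), with a median of 0.27. There were 3 past 2-fold and 8 past 1.5-fold. The 5 between these limits were Btg2, Fos, Irf1, Nr4a1 and Ier2. Fos, the partner of Jun proteins in AP-1, read 11.91 in TRIF KO cells at 1 h, against 11.04 in TRIF KO cells at 0 h. Irf1, a transcription factor of interferon and inflammatory genes, read 10.41 in TRIF KO cells at 1 h, against 9.58 in TRIF KO cells at 0 h. Nr4a1, an orphan nuclear receptor, differed by 0.81 in TRIF KO cells, 0.29 in MyD88 KO cells and 0.59 in wild-type cells. Btg2, an antiproliferative gene, differed by 0.93 in TRIF KO cells, 0.57 in MyD88 KO cells and 0.80 in wild-type cells. Nr4a1 and Btg2 thus had a larger difference in TRIF KO cells than in either other genotype.

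The cytokine list was split. Of 15 analysed genes, the 4 past 2-fold were Tnf, Il1b, Tnfsf9 and Il1a, and the other 11 were under 1.5-fold. Its median was 0.25 in TRIF KO cells. That median depended on low signals, and was 1.08 over members with a mean level of at least 7 and 0.041 with values below 6 raised to 6. Il6, a cytokine that is made later in the response, read 4.29 in TRIF KO cells at 1 h, against 3.91 in TRIF KO cells at 0 h, both below the level of 6. Of 14 analysed chemokines not induced by interferon, Cxcl1, Cxcl2 and Ccl3 passed 1.5-fold, and the median of the list was 0.08. Ccl3, which attracts monocytes, read 9.91 in TRIF KO cells at 1 h, against 9.23 in TRIF KO cells at 0 h. Ccl2, a monocyte chemokine, differed by only 0.11.

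Signalling feedback regulators had 25 analysed members, with a median of 0.07 in TRIF KO cells. Of these, 3 passed 2-fold and 6 passed 1.5-fold upward, and 1 passed 1.5-fold downward. Gadd45a, a growth arrest and stress gene, read 7.40 in TRIF KO cells at 1 h, against 6.57 in TRIF KO cells at 0 h. Its difference of 0.83 was larger than the 0.38 of both MyD88 KO and wild-type cells. Dusp2, another MAP kinase phosphatase, differed by 0.77, and Map3k8, the kinase Tpl2 that activates ERK signalling, by 0.68. Map3k8 differed by 0.07 in MyD88 KO cells and 0.55 in wild-type cells. The list of mRNA decay proteins had 7 analysed members, of which Zfp36 and Zc3h12a passed 1.5-fold. Zc3h12a encodes Regnase-1, an endonuclease that cuts inflammatory mRNAs. Its levels were 7.50 at 1 h, against 6.61 at 0 h, in TRIF KO cells, and 6.27 at 1 h, against 6.23 at 0 h, in MyD88 KO cells. Wild-type cells read 7.78 for Zc3h12a at 1 h, against 6.49 at 0 h.

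Macrophage effector genes had 33 analysed members, 30 of them above 0 in TRIF KO cells (52.7% of all genes), with a median of 0.19. The 4 past 1.5-fold were Ccrl2, Cd83, Acod1 and Ptgs2. Ccrl2, a chemerin-binding receptor, read 10.41 in TRIF KO cells at 1 h, against 9.48 in TRIF KO cells at 0 h. Cd83, a surface protein of activated antigen-presenting cells, read 10.20 in TRIF KO cells at 1 h, against 9.39 in TRIF KO cells at 0 h. Acod1, which makes the antimicrobial metabolite itaconate, read 9.50 in TRIF KO cells at 1 h, against 8.81 in TRIF KO cells at 0 h. Its difference was 0.69 in TRIF KO cells, 1.26 in MyD88 KO cells and 1.33 in wild-type cells, and so was smallest without TRIF. Ptgs2, the inducible cyclooxygenase of prostaglandin synthesis, read 6.03 in TRIF KO cells at 1 h, against 5.38 in TRIF KO cells at 0 h, near the level of 6 on both arrays. In no list were 5 of the 35 genes: Nlrp3, the inflammasome sensor (0.86), Etv3 (0.64), Noct (0.63), Trim13 (0.62) and Gdap10 (0.61).

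Type I interferon and interferon-stimulated genes had 29 analysed members. In TRIF KO cells 13 had a difference above 0 (52.7% of all genes) and 0 reached 1.5-fold in either direction (0.349% of all genes upward), which is close to the background. The range was -0.30 (Irf7) to 0.12 (Oas3). The median was -0.02 in TRIF KO cells, 0.05 in MyD88 KO cells and -0.07 in wild-type cells. Irf7, the interferon-induced transcription factor of that pathway, read 8.37 in TRIF KO cells at 1 h, against 8.67 in TRIF KO cells at 0 h. Cxcl10, an interferon-induced chemokine, differed by 0.06 in TRIF KO cells, 0.48 in MyD88 KO cells and 0.58 in wild-type cells. Ifnb1, for interferon-beta, stayed below the level of 6 on all 9 arrays. The median of the interferon list at 1 h was thus near 0 in all 3 genotypes.

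TLR4 signalling components had 18 analysed members, with a median of 0.04 in TRIF KO cells. None passed 1.5-fold (0.349% of all genes upward), which is close to the background. Tlr4 itself differed by -0.15, its co-receptor Cd14 by 0.18 and Tab3, which links TRAF6 to TAK1, by 0.39. Macrophage receptors and lipid regulators had 19 analysed members, a median of 0.05 and none past 1.5-fold, again close to the background. Cholesterol exporter Abca1 was the highest of them at 0.25, and Thbd, thrombomodulin, the lowest at -0.22. The 13 reference transcripts had a median of -0.03, between -0.11 (Hprt) and 0.16 (Polr2a).

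**Figure D3:**
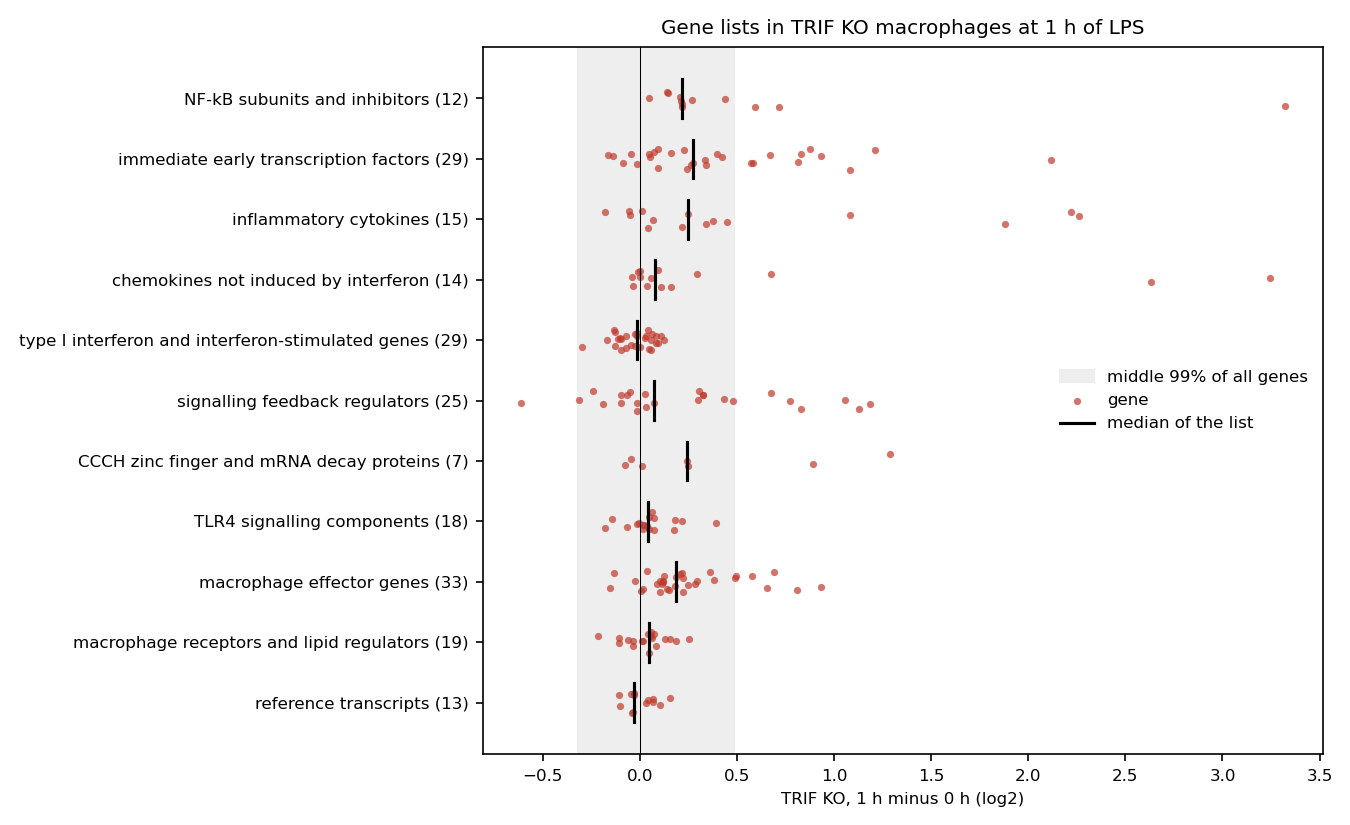
Differences in TRIF KO cells at 1 h (1 h minus 0 h, log2, across) for the analysed genes of 11 lists (down the page, number of genes in brackets). Each point is a gene, black bars are list medians, and the grey band holds the middle 99% of all 10032 genes, from -0.32 to 0.49. Interferon-stimulated genes lie within the band, and the genes beyond 1 belong to 6 of the lists.

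Downward differences were small. Rgs2, which limits signalling of G protein-coupled receptors, was the gene at least 1.5-fold lower. It read 9.45 in TRIF KO cells at 1 h, against 10.06 in TRIF KO cells at 0 h. Its difference of -0.61 compares with -0.14 in MyD88 KO cells and -0.74 in wild-type cells, and at 4 h it read 8.96 in TRIF KO cells. After Rgs2 came Hbegf, a ligand of the epidermal growth factor receptor (-0.54), Creld2, an endoplasmic reticulum protein (-0.49), Mcoln3, an ion channel of endosomes and lysosomes (-0.49), and Zfp82 and Nrep (-0.45 each). Mmp8 (-0.41), Col6a1 and Gsx1 (-0.40 each) and Slc6a12 (-0.39) completed the 10 lowest. Mmp8, the collagenase of neutrophils, is on the neutrophil marker list. The other analysed members of that list differed by between -0.15 (Elane) and 0.13 (S100a8) in TRIF KO cells. The part of neutrophil RNA in the Mmp8 value was not tested. Creld2 differed by 0.01 in MyD88 KO cells and by -0.58 in wild-type cells, whereas Hbegf differed by -0.03 and 0.07 in them.

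The question that the genotypes pose is how much of the 1 h response remains without TRIF. In wild-type cells 24 genes were at least 2-fold higher (0.239%) and 0 at least 2-fold lower (0.0%). All 14 genes past 2-fold in TRIF KO cells were among these 24, which is 100% of the TRIF KO genes and 58.3% of the wild-type genes. Of the other wild-type genes, all but 1 reached 1.5-fold in TRIF KO cells. The exception, Phlda1, a gene of the pleckstrin homology-like domain family, differed by 0.56 in TRIF KO cells, 0.56 in MyD88 KO cells and 1.38 in wild-type cells. For every one of the 24 genes the difference was smaller in TRIF KO cells than in wild-type cells. Since they were chosen for a high wild-type value, that direction is a description. Their median difference was 1.08 in TRIF KO cells, 0.80 in MyD88 KO cells and 1.39 in wild-type cells.

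Expressed as a share of the wild-type log2 difference, the TRIF KO value of the 24 genes had a median of 70.8%. Ier3 (94.7%), Zfp36 (92.7%), Junb (87.3%) and Nfkbiz (86.0%) kept the largest shares. Phlda1 (40.5%), Tnfsf9 (46.3%), Gdap10 (48.2%), Acod1 (52.0%) and Tnfaip3 (54.4%) kept the smallest. Tnfsf9 (-2.18), Tnf (-0.86), Phlda1 (-0.82), Socs3 (-0.82) and Nrep (-0.76) were the genes whose difference lay furthest below that of wild type, as TRIF KO minus wild type. Raly (0.89), Ltb (0.88), Cks2 (0.75), Rb1 (0.73) and Rnf138 (0.73) were furthest above it, each with a negative difference in wild-type cells. The place of Socs3 depends on the probe set. Its 2 other probe sets differed by 2.03 and 2.01 in TRIF KO cells, against 2.76 and 2.34 in wild-type cells. At 1.5-fold, wild-type cells had 50 genes higher (0.498%) and 8 lower (0.0797%). They shared 31 of the higher genes with TRIF KO cells, which is 88.6% of the TRIF KO genes and 62% of the wild-type genes. Of the 35 TRIF KO genes, 27 had a smaller difference than in wild-type cells and 8 did not.

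MyD88 KO cells, in which TRIF is the adaptor left, had 7 genes at least 2-fold higher (0.0698%) and 0 lower (0.0%). At 1.5-fold they had 21 higher (0.209%) and 1 lower (0.00997%). They shared 6 of the 2-fold genes with TRIF KO cells. At 1.5-fold, 17 genes were shared, 48.6% of the TRIF KO genes and 81.0% of the MyD88 KO genes. Socs3 was in neither shared set on the probe set used, which differed by 0.38 in MyD88 KO cells. Its 2 other probe sets differed by 1.37 and 1.56 there. The difference was larger in TRIF KO than in MyD88 KO cells for 13 of the 14 genes past 2-fold, all but Cxcl2. It was larger for 32 of the 35 past 1.5-fold, all but Cxcl2, Acod1 and Nfkbia. Since these genes were chosen in TRIF KO cells, this direction too is a description.

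Of the 35 genes, 18 were under 1.5-fold in MyD88 KO cells, where only 0.209% of all genes were at least 1.5-fold higher. The 18 include Socs3, whose 2 other probe sets differed by 1.37 and 1.56 in MyD88 KO cells. Of the 18, 5 had a signed difference under 0.1 in MyD88 KO cells, 1 of them negative. Those 5 were Zc3h12a (0.89 in TRIF KO, 0.03 in MyD88 KO, 1.29 in wild type), Map3k8 (0.68 in TRIF KO, 0.07 in MyD88 KO, 0.55 in wild type), Ptgs2 (0.65 in TRIF KO, 0.08 in MyD88 KO, 1.15 in wild type), Noct (0.63 in TRIF KO, 0.06 in MyD88 KO, 0.50 in wild type) and Gdap10 (0.61 in TRIF KO, -0.22 in MyD88 KO, 1.26 in wild type). Noct, a deadenylase-related protein also called nocturnin, read 7.58 in TRIF KO cells at 1 h, against 6.95 in TRIF KO cells at 0 h. At 0 h, Zc3h12a read 6.61 in TRIF KO cells and 6.23 in MyD88 KO cells, and Map3k8 read 8.04 in TRIF KO cells and 7.58 in MyD88 KO cells. Ptgs2, Noct and Gdap10 had the higher 0 h level in MyD88 KO cells.

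**Figure D4:**
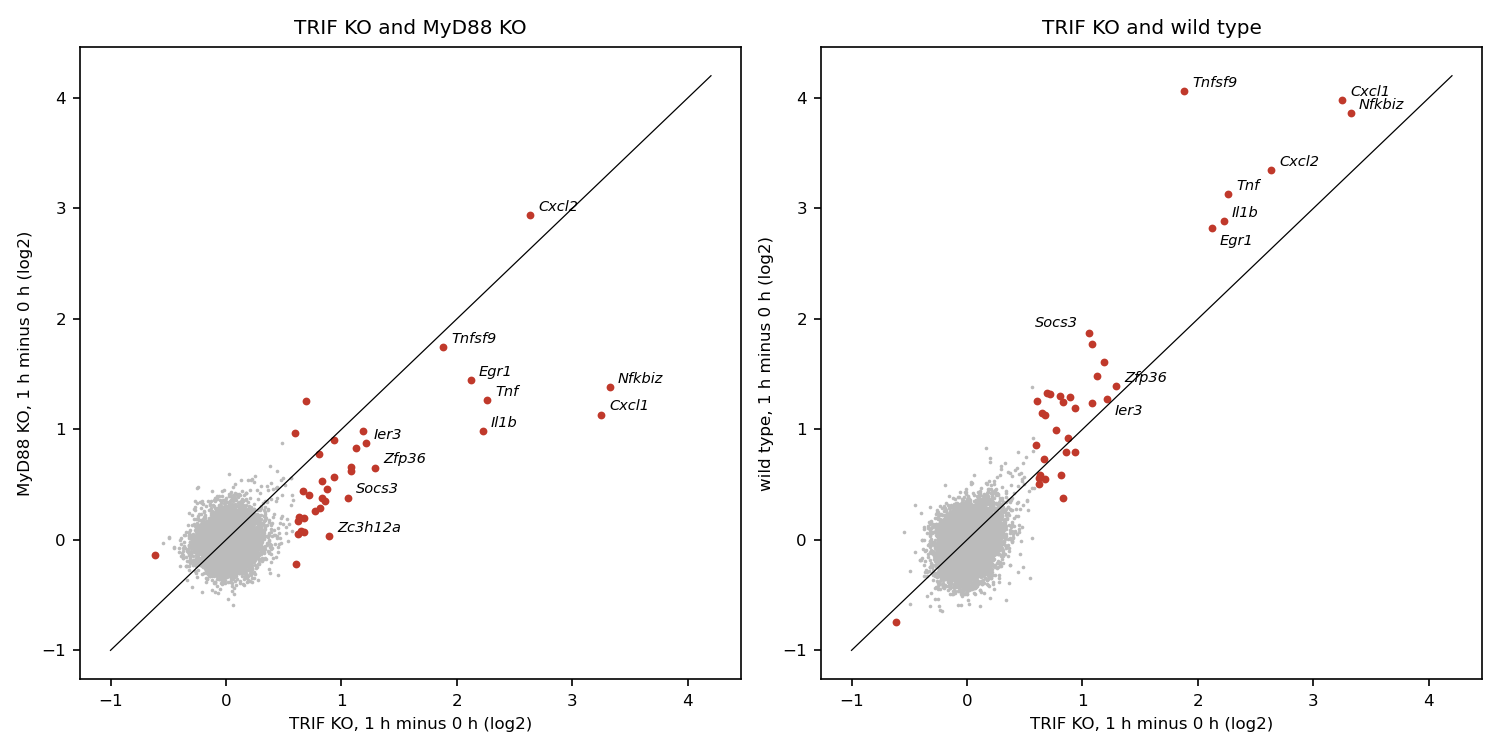
Differences at 1 h (1 h minus 0 h, log2) of the 10032 genes in TRIF KO cells (across) and in MyD88 KO cells (left panel, upward) or wild-type cells (right panel, upward), with the line of equal values. Red points are the genes at least 1.5-fold higher or lower in TRIF KO cells. Nearly all red points on the upper side lie under the line in the left panel, Cxcl2 being an exception, and the 14 genes past 2-fold lie above it in the right panel.

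A test over arrays was possible where TRIF KO and wild-type cells served as replicates of cells that contain MyD88. A limma model with genotype, time and a separate time response for MyD88 KO cells was fitted to the 9 arrays, with Benjamini-Hochberg adjustment over the 10032 genes. No label says whether arrays came from separate mice or cultures. The fit's own error comes from the disagreement between TRIF KO and wild-type cells in their 1 h and 4 h responses. It therefore mixes any effect of TRIF with array-to-array spread, which may be technical. A gene whose response depends on TRIF has a larger error. At an adjusted p of 0.05, 46 genes were higher at 1 h (0.459%) and 1, Creld2, was lower (0.00997%). The 46 held all 14 genes past 2-fold in TRIF KO cells and 32 of the 35 past 1.5-fold. Since those genes were chosen on arrays that the model also uses, this overlap is a description. Gadd45a, Ccl3 and Ptgs2 did not pass, nor did Rgs2. With values below 6 raised to 6 the count was 2, Nfkbiz and Zfp36. It was 16 without the wild-type 1 h array, 17 without the TRIF KO 1 h array, and 22 without the wild-type 0 h array. Tnfsf9, Pde4b and Il1a lost the call when the wild-type 1 h array was left out, as did Pde4b and Il1a when that of TRIF KO was. The count of lower genes was 8 without the TRIF KO 0 h array and 0 with any single one of the other 3 left out, with 391 to 1093 genes of either direction at an unadjusted p under 0.05.

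Nfkbiz rose by 3.59 ± 0.122 (SE) in this limma fit, with a Benjamini-Hochberg adjusted p of 6.1e-08. Cxcl1 rose by 3.61 ± 0.210 (limma, adjusted p = 5.2e-06) and Tnf by 2.69 ± 0.166 (limma, adjusted p = 6.6e-06). With values below 6 raised to 6, the adjusted p in limma was 0.14 for Cxcl1, 0.10 for Tnf and 0.50 for Tnfsf9. None of these passes. No value of Tnf or Tnfsf9 lay below 6, so their own values were unchanged in that setting. Their adjusted p moved through the other genes, by way of the shared variance prior and the adjustment. The most uneven response between TRIF KO and wild-type cells among the 2-fold genes was that of Tnfsf9, which rose by 2.97 ± 0.348 (limma, adjusted p = 0.0019). All 46 higher genes had a difference above 0 in TRIF KO cells, the lowest being 0.33 for Klf2. The limma effect is the mean of the TRIF KO and wild-type differences, so this direction is a description. By role, limma called 11 of 29 immediate early genes, 6 of 25 feedback regulators, 4 of 15 cytokines, 4 of 33 effector genes, 3 of 12 NF-kB genes, 2 of 14 chemokines and 2 of 7 mRNA decay genes. It called 0 of 29 interferon-stimulated genes and 0 of 18 TLR4 components, of which 1 and 4 had an unadjusted p under 0.05. Since limma called 0.459% of all genes higher, 0 calls in lists of this size are close to the background. Over all genes 1047 had an unadjusted p under 0.05.

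The limma calls added 14 genes that were under 1.5-fold in TRIF KO cells. Among them were the transcription factors Cebpb (0.52 ± 0.0815, adjusted p = 0.013), Egr2 and Klf2, the kinase gene Pim1, Id3, Prdm1, Tnfaip2, the scavenger receptor gene Olr1 and Phlda1. Cebpb, a partner of NF-kB at inflammatory promoters, read 11.93 in TRIF KO cells at 1 h, against 11.35 in TRIF KO cells at 0 h. Creld2 fell by 0.53 ± 0.0788 (limma, adjusted p = 0.0099).

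The same model tested whether the 1 h response of MyD88 KO cells differed from that of the MyD88-containing cells. At an adjusted p of 0.05, 1 gene, Nfkbiz, was called (0.00997%), and 780 genes had an unadjusted p under 0.05. For Nfkbiz the 1 h response in MyD88 KO cells minus that in TRIF KO and wild-type cells was -2.21 ± 0.211 (SE, limma, adjusted p = 0.0042). Cxcl1 had a larger estimate with a larger error, -2.48 ± 0.364 (limma, adjusted p = 0.13), and did not pass. Nor did Zc3h12a, at -1.06 ± 0.175 (limma, adjusted p = 0.27). Whether the 1 h response of TRIF KO cells alone differed from that of wild-type cells was not tested. In this comparison limma called 0 genes without the wild-type 1 h array (433 at an unadjusted p under 0.05; adjusted p = 0.10 for Nfkbiz), 2 with that of 0 h left out, and 8 without the TRIF KO 0 h array. Over all alternatives the adjusted p of Nfkbiz in limma was highest, 0.62, with values below 6 raised to 6. It was lowest with the 0 h and 1 h arrays alone. That fit has fewer residual degrees of freedom than the 2 of the main fit. Its p rests largely on the shared variance prior and is no stronger evidence.

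The 4 h array shows how long the 1 h genes stayed high in TRIF KO cells, and its differences use the same 0 h array. Of the 35 genes, 13 were at least 1.5-fold lower at 4 h than at 1 h, 19 were within 1.5-fold and 3 were at least 1.5-fold higher. There were 10 genes less than 1.2-fold above their 0 h level at 4 h, while 18 were still at least 1.5-fold above it. The 35 genes were chosen for a high TRIF KO value at 1 h, which favours a fall by 4 h. The 4 h counts given here and below are thus a description, and their shares over all genes were not computed. Several immediate early genes were back near or below their 0 h level at 4 h. Egr1 read 8.85 at 0 h, 10.97 at 1 h and 8.51 at 4 h in TRIF KO cells. Fos read 11.04 at 0 h, 11.91 at 1 h and 11.06 at 4 h, and Btg2 differed from 0 h by 0.93 at 1 h and by -0.01 at 4 h. Irf1 (0.59), Ier3 (0.57) and Junb (0.54), of the same list, were still above 0 h at 4 h. Outside that list, Noct (-0.12), Gadd45a (0.02), Dusp2 (0.12) and Zfp36 (0.12) differed little from 0 h at 4 h, and Dusp1 read 10.06.

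Chemokine and cytokine genes past 2-fold at 1 h were still past 2-fold at 4 h. Cxcl2 read 9.27 at 0 h, 11.90 at 1 h and 11.88 at 4 h in TRIF KO cells, and Tnf 9.66 at 0 h, 11.92 at 1 h and 11.75 at 4 h. Cxcl1 read 8.28, Il1b 8.81 and Il1a 8.03 at 4 h, each above its 0 h level by at least 2-fold. Tnfsf9 read 6.49 at 0 h, 8.38 at 1 h and 7.69 at 4 h, and was one of the 13 genes lower at 4 h than at 1 h. So was Nfkbiz, at 9.12 at 4 h. The 3 genes that were higher at 4 h than at 1 h were Acod1 (8.81 at 0 h, 9.50 at 1 h, 11.69 at 4 h), Ccl3 (9.23 at 0 h, 9.91 at 1 h, 10.56 at 4 h) and Ptgs2 (5.38 at 0 h, 6.03 at 1 h, 6.65 at 4 h). Of the 14 genes past 2-fold at 1 h, 9 were still past 2-fold at 4 h.

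**Figure D5:**
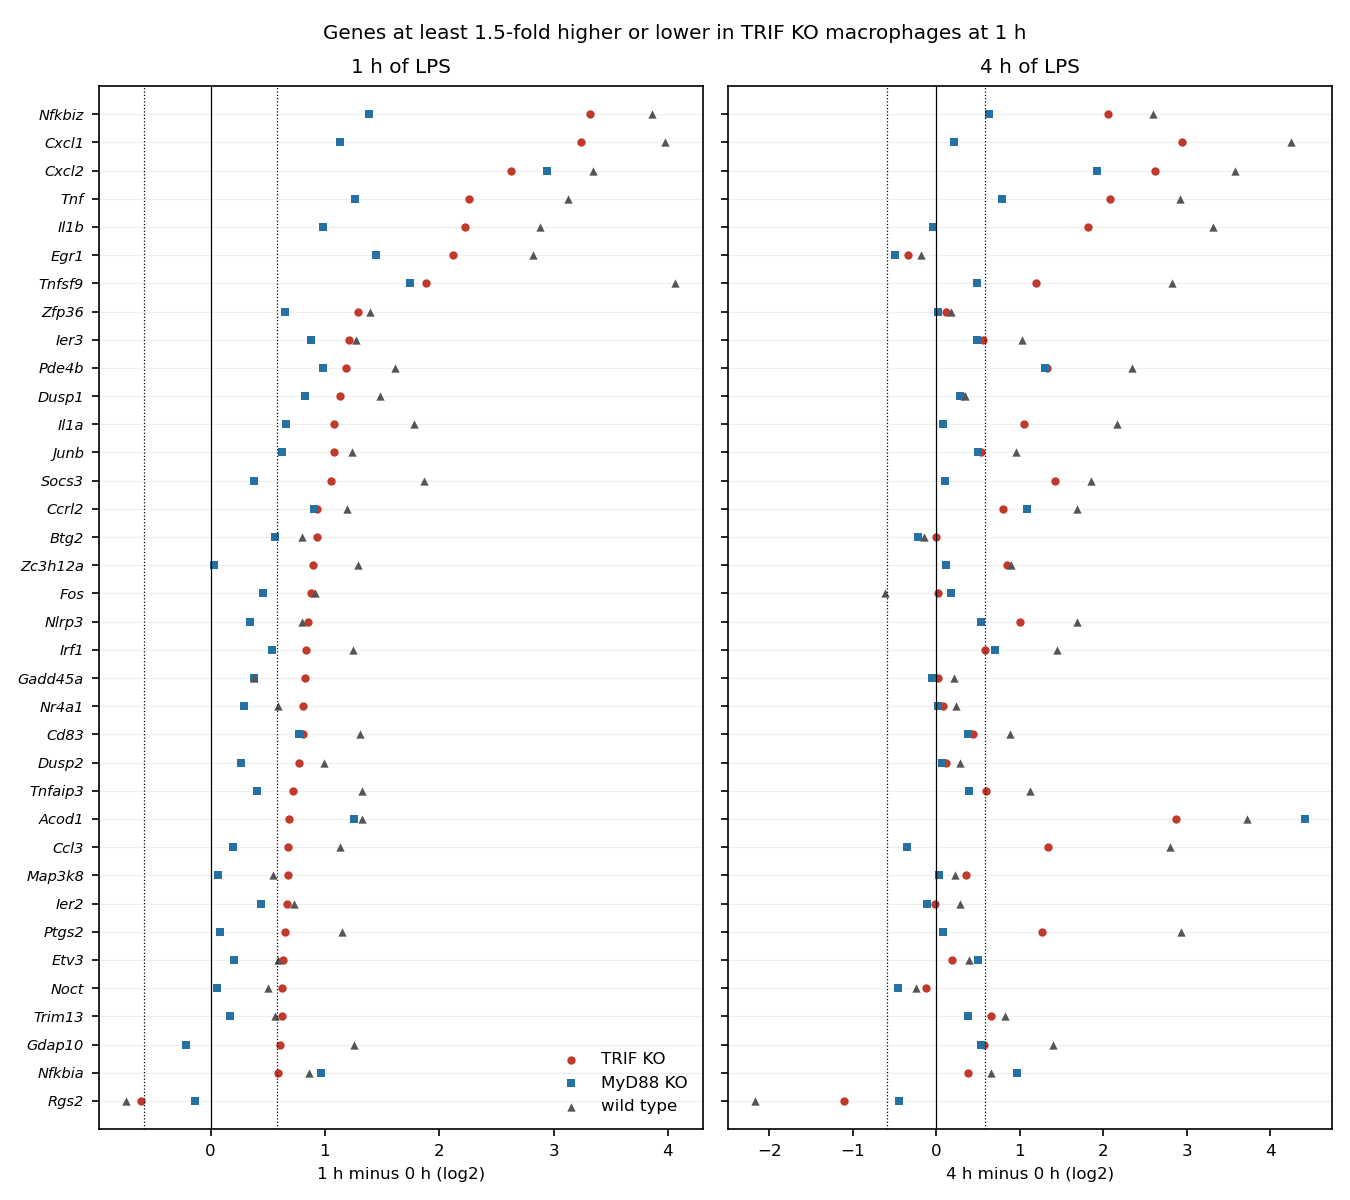
Differences from 0 h (log2, across) at 1 h (left panel) and 4 h (right panel) of the 35 genes at least 1.5-fold higher and of Rgs2 (down the page, ordered by the TRIF KO value at 1 h). Red circles are TRIF KO, blue squares MyD88 KO and grey triangles wild type, with 1 array on each side of a difference and dotted lines at 1.5-fold. Egr1, Fos and Btg2 lie near or below 0 at 4 h, and Acod1, Ccl3 and Ptgs2 lie further to the right at 4 h than at 1 h in TRIF KO cells.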

How the data were processed

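Biotin-labelled RNA was hybridised to Affymetrix arrays of 22690 probe sets. The authors deposited log2 values from RMA, which the submitters' processing notes name with no version, and these were used without further normalization. RMA summarises the probes of a set and aligns the distributions of arrays processed together. A shift shared by most genes would therefore not be seen between such arrays. GEO's platform annotation named 20393 probe sets with 1 gene, of which 20364 matched the RefSeq table of GRCm38.p6, while 691 named several genes and 1606 were not listed.

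Genes took the probe set of highest mean and had to reach log2 = 6 on 1 array. With 1 array per group, comparisons are differences of log2 values, described by fold. limma 3.58.1 (R 4.3.3; lmFit, eBayes, two-sided) had 2 residual and 9.18 prior degrees of freedom and was tested on simulated data.

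Named genes were the targeted genes, those past 2-fold, the 10 lowest, the 5 furthest below and above wild type, limma interaction calls and up to 6 members of each list. Genes past 1.5-fold and others singled out were named after their values were seen. Members and the 21 lists (10 of markers) were chosen with earlier results of these data known. Alternatives were other filters, probe set choices, scalings, model terms and leaving out arrays. The number of arrays limits the precision.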

Additional observations from a re-analysis of the deposited data

Results flagged for a closer look

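Nfkbiz was picked out because its response differed between genotypes in a test of the difference itself. Its 1 h response in MyD88 KO cells minus that in TRIF KO and wild-type cells was -2.21 (log2, limma, Benjamini-Hochberg adjusted p = 0.0042).

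Further genes were picked out because they went in opposite directions in a pair of genotypes by at least 0.25 on each side, with 1 array for each value. These differences were not tested. Against wild type, the TRIF KO difference at 1 h minus the wild-type difference was 0.89 for Raly, 0.88 for Ltb, 0.75 for Cks2, 0.73 for Rb1 and -0.76 for Nrep. Raly, an RNA-binding protein gene, differed by 0.54 in TRIF KO cells and -0.35 in wild-type cells. Ltb, for lymphotoxin beta, read 5.63 in TRIF KO cells at 1 h, against 5.29 in TRIF KO cells at 0 h, and 5.79 at 1 h, against 6.34 at 0 h, in wild-type cells. Rb1, the retinoblastoma tumour suppressor gene, differed by 0.44 in TRIF KO cells, 0.38 in MyD88 KO cells and -0.29 in wild-type cells. In TRIF KO minus MyD88 KO cells the value was 0.76 for Lif and 0.68 for Il6. Both are cytokine genes, and Il6 stayed under a level of 6 on the arrays of these knockouts.

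Among 1433 probe sets that name no single gene and reached the level of 6, 1 was at least 2-fold higher in TRIF KO cells at 1 h. It read 9.99 in TRIF KO cells at 1 h, against 8.90 in TRIF KO cells at 0 h, a difference of 1.08. The same probe set differed by 0.75 in MyD88 KO cells and 1.61 in wild-type cells. Between unstimulated TRIF KO and wild-type cells, 0 of these probe sets were at least 2-fold higher.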

How the results depend on the processing

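The counts of 14 genes at least 2-fold higher, 0 lower and 35 at least 1.5-fold higher in TRIF KO cells stayed within 1.5 times under the 7 alternatives run for them (no filter, a stricter filter, low values raised to 6, other probe set choices, centring on reference transcripts and renewed quantile normalization). Centring moved the median of all genes to -0.05. Many recomputed gene differences could not move, since filters leave a gene's values unchanged and 11 of the 14 genes had a single probe set. Raising low values to 6 could change the TRIF KO difference at 1 h of Cxcl1 alone. Of 97 recomputed differences, 92 moved little, 0 reversed and 5 moved, so this tally is a weak check. These 5 were Nfkbiz (2.76), Pde4b (0.79) and Socs3 (1.70) with the mean of all probe sets, Socs3 (2.03) with the probe set of largest variance, and Cxcl1 (2.57) with low values raised to 6. The cytokine median of 0.25 became 1.08 over members with a mean of at least 7, and 0.041 with low values raised to 6.

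The limma counts (46 higher, 1 lower, 1 in the comparison of MyD88 KO with the other genotypes) were less stable. With low values raised to 6 they were 2, 0 and 0 (994 and 739 genes at an unadjusted p under 0.05 in the first and the last comparison). With the 0 h and 1 h arrays alone they were 116, 23 and 26. Without a separate MyD88 KO response 29 genes were higher and 0 lower, and a mean-variance trend gave 3 lower. Leaving out 1 array of the 0 h and 1 h TRIF KO and wild-type groups gave 16 to 46 higher, 0 to 8 lower and 0 to 8 in the comparison of MyD88 KO. Of the 14 genes past 2-fold, 12 lost the call with low values raised to 6, 3 without the separate response, 3 when the wild-type 1 h array was left out and 2 when that of TRIF KO was. Of the 12, only Cxcl1 had values below 6. The other genes' own values were unchanged in that setting, so their calls moved through the shared variance prior and the adjustment. The cause of the remaining changes was not tested. No paired analysis was possible because each group had 1 array and the labels give no replicate numbers.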

Other observations

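The genes that limma called higher at 1 h in MyD88-containing cells, although under 1.5-fold in TRIF KO cells, include regulators of several kinds. Prdm1, which encodes the transcriptional repressor Blimp-1, differed by 0.44 in TRIF KO cells, 0.62 in MyD88 KO cells and 0.80 in wild-type cells. Id3, an inhibitor of helix-loop-helix transcription factors, differed by 0.50 in TRIF KO cells, 0.14 in MyD88 KO cells and 0.56 in wild-type cells. Klf2, a transcription factor that restrains macrophage activation, differed by 0.33 in TRIF KO cells, -0.11 in MyD88 KO cells and 0.70 in wild-type cells. Samd8, a ceramide phosphoethanolamine synthase gene, differed by 0.47 in TRIF KO cells, 0.02 in MyD88 KO cells and 0.61 in wild-type cells. Ccnl1, a cyclin linked to RNA splicing, and Son, a splicing cofactor, differed by 0.57 and 0.39 in TRIF KO cells.

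Across the 10032 genes, the 1 h differences of TRIF KO and wild-type cells correlated at 0.493 (Pearson) and 0.267 (Spearman), and those of TRIF KO and MyD88 KO cells at 0.279 and 0.0804. Without the genes at least 1.5-fold higher in any genotype (9976 left), Pearson values were 0.269 with wild type and 0.102 with MyD88 KO. These pairs of differences share no array, genes are not independent replicates, and the values are a description.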
